A study of Homo sapiens with 3 samples.

Results

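The miR-378 family was examined in small RNA libraries of 3 strains of HCCLM3, an established human hepatocellular carcinoma (HCC) cell line. Its members were taken by name, as every row called hsa-miR-378 with any letter, copy or arm suffix, and 10 of the 1921 listed miRNA names met this rule. The family was chosen by values already known from these counts. These were the levels of its members in each library, above all hsa-miR-378a-3p and hsa-miR-378c, and the quotient of each member to hsa-miR-378a-3p. Such values are a description and carry no test. The strains, grown in DMEM, were the parent line (labelled low metastasis), subclone1 (labelled for higher metastasis to the lung) and subclone2 (labelled for metastasis to lung and celiac lymph node). No other agent or genetic change was named in the labels. The study's text names as its parental line a fluorescent HCCLM3 derivative with high metastatic potential. Its monoclonal lines were not cloned from that culture directly. They came from single cells of cultures made from lung and lymph node metastases of its xenografts in nude mice. The labels do not tie subclone1 or subclone2 to any of those clones, and "low" stands here only as the label of the parent library. Each strain had 1 library, so no difference below has a replicate check, and a ratio compares libraries, not strains.

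A miRNA is a short RNA cut from a hairpin precursor. It is loaded into an Argonaute protein and lowers the output of messenger RNAs that pair with its seed, the bases from position 2 to 8. The best studied member, miR-378a, is made from an intron of PPARGC1B, which encodes PGC-1 beta, a coactivator of genes of mitochondrial and lipid metabolism. miR-378a is known from muscle, brown fat and liver, where both arms of its hairpin were linked to the control of energy use. The other letters of the family are separate loci whose mature strands look much like hsa-miR-378a-3p.

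The mature sequences are shown first because the members are told apart by few bases, and the counts below depend on how reads were assigned between them. RefSeq (GRCh38.p14) held a mature sequence for 8 of the 10 member names; hsa-miR-378d and hsa-miR-378e are named only. The seed is in capitals.
hsa-miR-378a-3p: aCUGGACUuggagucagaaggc
hsa-miR-378c: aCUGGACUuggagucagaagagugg
hsa-miR-378b: aCUGGACUuggaggcagaa
hsa-miR-378f: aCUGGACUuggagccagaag
hsa-miR-378g: aCUGGGCUuggagucagaag
hsa-miR-378h: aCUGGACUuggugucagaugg
hsa-miR-378i: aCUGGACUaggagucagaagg
hsa-miR-378a-5p: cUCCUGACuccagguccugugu

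hsa-miR-378c, of 25 bases, was identical to hsa-miR-378a-3p, of 22 bases, over the leading 20. With positions counted from 1 at the 5′ end, the remaining bases differed as G21A and C22G, and 3 further bases followed in hsa-miR-378c. Therefore, a read that stops at or before base 20 fits both names equally well. hsa-miR-378b (U14G), hsa-miR-378f (U14C), hsa-miR-378g (A6G) and hsa-miR-378i (U9A) each carried 1 substitution against hsa-miR-378a-3p and ended 1 to 3 bases earlier, whereas hsa-miR-378h carried A12U and A19U. Only the substitution of hsa-miR-378g fell within the seed.

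Among the 2370 RefSeq mature names, which lack hsa-miR-378d and hsa-miR-378e, the seed CUGGACU was found in 7, which is 0.295%. Of these, 6 were members and the other was hsa-miR-422a, which differs from hsa-miR-378a-3p by G10A and A12G and is shown for that reason.
hsa-miR-422a: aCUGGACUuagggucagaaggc
The altered seed of hsa-miR-378g and the seed of hsa-miR-378a-5p, UCCUGAC, were each held by no other name.

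The loci are scattered over the genome. Positions are those of the annotation (GENCODE 29 and RefSeq, both GRCh38), since the count tables hold no coordinates. MIR378A lies on chromosome 5 at 149732825 to 149732890 (plus strand) in an intron of PPARGC1B on the same strand, with hsa-miR-378a-3p at 149732867 to 149732888 and hsa-miR-378a-5p at 149732829 to 149732850. MIR378C lies on chromosome 10, in the minus strand interval from 130962588 to 130962668, outside any annotated gene, as does MIR378F on chromosome 1. MIR378D1 (chromosome 4, in C4orf50), MIR378E (chromosome 5, in DOCK2) and MIR378G (chromosome 1, in SLC44A3-AS1) sit in introns of genes on their own strand, MIR378B and MIR378H in introns of ATP2B2 and FAXDC2 on the opposite strand, and MIR378I overlaps an exon of TNFRSF13C. hsa-miR-378d is also made from MIR378D2. The nearest annotated miRNA genes to MIR378A were MIR145 and MIR143, 302 and 304 kb away. Their names held 0, 1 and 0 counts and 8, 2 and 1 counts in parent, subclone1 and subclone2, far below the family.

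The total count was 7902438 for the parent, 3570864 for subclone1 and 4568075 for subclone2. Levels are given as CPM, the count scaled to a library total of 1e+06, with exact 95% Clopper-Pearson intervals. Where a name had no count, the upper end of that interval was 0.467, 1.03 and 0.808 CPM in these libraries. The tables carry no molecular identifiers, so all intervals and limits cover counting error only. The hepatocyte marker list was close to absent: hsa-miR-122-5p, the defining hepatocyte miRNA, had 53, 19 and 18 counts (3.94 to 6.71 CPM), and the other 2 names were at 0. Blood, endothelial and fibroblast lists summed to 0.219 to 2.24 CPM each. The fibroblast list held the 5p arm of miR-199a, at 0 counts, and came to 8, 2 and 1 counts in parent, subclone1 and subclone2. The 3p arm of miR-199a, not listed, had 31, 6 and 9 counts. By contrast, the liver and gut epithelium names hsa-miR-192-5p with hsa-miR-194-5p were detected at 108 to 69068 CPM. In the subclones these latter names were higher than in the parent, and their part in the results below was not tested.

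Of the 10 members, 6 were detected in any library and 5 in all 3. The 4 names hsa-miR-378b, hsa-miR-378e, hsa-miR-378h and hsa-miR-378i had a count of 0 throughout, as did hsa-miR-422a, so their presence was not detectable at this depth. Only hsa-miR-378a-3p and hsa-miR-378c reached a mean of 10 CPM over the libraries, a level met by 192 names of the whole table. The family therefore amounted in these cells to hsa-miR-378a-3p with a small fraction of other names. hsa-miR-378a-3p held 97.4% of the family counts in the parent library (95% interval from 96.9 to 97.9), 91.8% of those in subclone1 (from 90.3 to 93.1) and 95.4% of those in subclone2 (from 94.03 to 96.5). Such shares compare different small RNAs, which ligate to the kit's adapters with unequal efficiency, and describe reads rather than molecules.

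hsa-miR-378a-3p, the guide strand of the PPARGC1B hairpin, reached 3352 counts in the parent library, 1436 counts in subclone1 and 1153 counts in subclone2. This corresponded to 424 CPM (95% interval 409.9 to 439), 402 CPM (382 to 423) and 252 CPM (238 to 267), and to ranks 52, 50 and 61 among all names of the respective library. The parent and subclone1 intervals overlapped, while subclone2 lay below both. As shown in the plot of levels by library, the level in subclone2 was 0.595 times that of the parent (interval 0.556 to 0.636).

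hsa-miR-378c showed another order. It had 70 counts in the parent, 107 counts in subclone1 and 43 counts in subclone2, although the parent library was 2.21 times as deep as subclone1. The levels were 8.86 CPM (6.91 to 11.2), 29.96 CPM (24.6 to 36.2) and 9.41 CPM (6.81 to 12.7). Subclone1 stood above both other libraries, and the intervals of parent and subclone2 overlapped almost entirely. At the depth of subclone1, the parent counts would have come to 31.6 and those of subclone2 to 33.6, against the 107 observed.

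hsa-miR-378d, which is made from a pair of hairpins, was the next member. It had 9 counts in the parent, 18 counts in subclone1 and 9 counts in subclone2, or 1.14 (0.521 to 2.16), 5.04 (2.99 to 7.97) and 1.97 CPM (0.901 to 3.74). The highest level again fell in subclone1, with an interval that overlapped that of subclone2 but not that of the parent. hsa-miR-378a-5p, the passenger strand of miR-378a, had 5, 2 and 3 counts, with levels of 0.633, 0.560 and 0.657 CPM that could not be separated. hsa-miR-378g had 3, 1 and 0 counts and hsa-miR-378f had 1 count in each library, too few for any order.

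**Figure D1:**
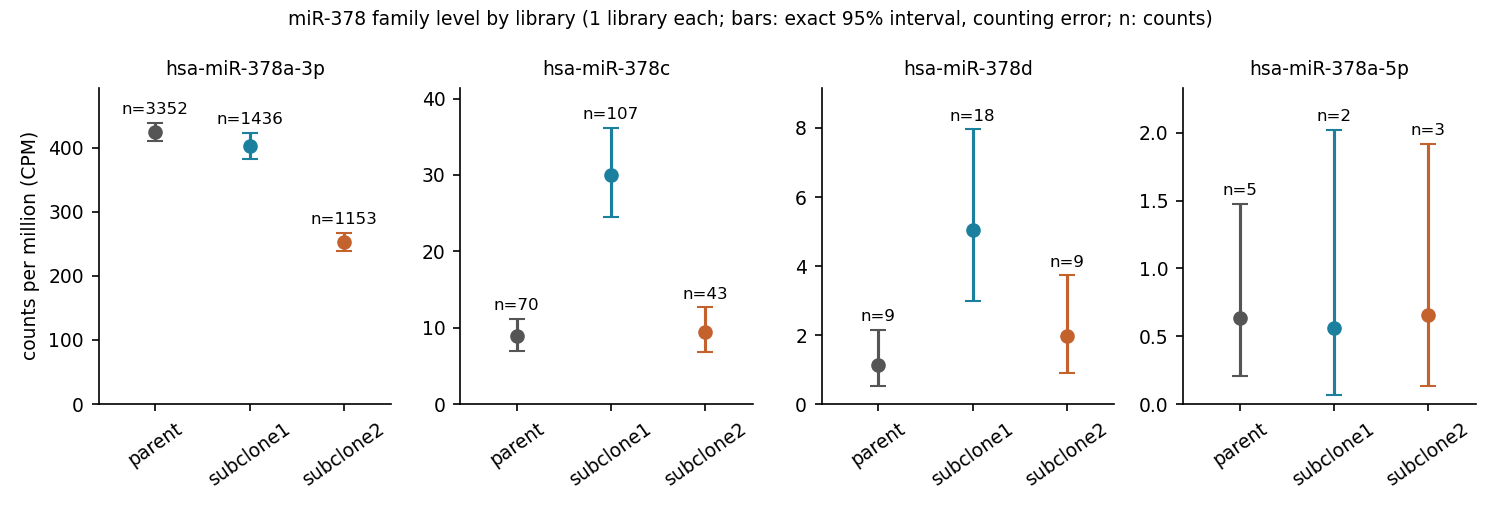
Level of the 4 most abundant miR-378 names in CPM, by library, each panel with its own axis from 0; points are the single libraries, bars exact 95% binomial intervals for counting error, and n the counts. hsa-miR-378a-3p was lowest in subclone2 (252 CPM), whereas hsa-miR-378c and hsa-miR-378d were highest in subclone1 (29.96 and 5.04 CPM).

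The strain labelled for lung metastasis, subclone1, was set against the parent first. The abundant hsa-miR-378a-3p stayed close to its parental level, while hsa-miR-378c was 3.37-fold higher (interval 2.48 to 4.64), a log2 ratio of 1.75 (1.31 to 2.21). A miRNA was called when its ratio reached 2-fold in either direction and its interval did not hold 1, among names whose mean over both libraries was 10 CPM or more. Of the 2 members kept, 1 was called, and 13.0% of the 192 names kept in this comparison were. Nothing is read from that count, because hsa-miR-378c passed the minimum only through its level in subclone1 and its levels were among the values that chose the family. Of the kept names, 4 had a larger log2 ratio than hsa-miR-378c. The log2 ratio of hsa-miR-378a-3p was -0.08 (-0.17 to 0.01), and 166 of the 192 names lay at least as far from no change. With TMM scaling it was -0.14 (-0.23 to -0.05), an interval that no longer held 0.

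In absolute terms, the difference of subclone1 minus parent was -22.03 CPM for hsa-miR-378a-3p and 21.1 CPM for hsa-miR-378c. The summed level of both names was 433 CPM in the parent and 432 CPM in subclone1, a ratio of 0.998 (0.939 to 1.06). This sum was chosen after the values were seen. Its intervals, 419 to 448 CPM in the parent and 411 to 454 CPM in subclone1, were each wider than either difference. The sum therefore cannot show whether counts moved between the names. All members together had 435 CPM (421 to 450.1) in the parent and 438 CPM (417 to 461) in subclone1, and the log2 ratio was 0.01 (-0.08 to 0.10). The family total thus did not differ detectably between these libraries, whereas the members other than hsa-miR-378a-3p summed to 11.1 and 36.1 CPM (log2 1.70, 1.30 to 2.11). Without hsa-miR-378c as well, the remaining names had 18 and 22 counts, or 2.28 and 6.16 CPM, a log2 ratio of 1.43 (0.47 to 2.42). hsa-miR-378d gave 9 of the 18 counts in the parent and 18 of the 22 in subclone1, and its log2 ratio was 2.11 (0.92 to 3.48).

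Next, subclone2, the strain with dual tropism, was compared with the parent. Here the main member was lower, while no difference was detectable for hsa-miR-378c or hsa-miR-378d. hsa-miR-378a-3p had a log2 ratio of -0.75 (-0.85 to -0.65) and was not called, since it did not reach 2-fold. It was the only member kept, and 10.7% of the 187 kept names were called. hsa-miR-378c lay just below the minimum level, with 8.86 and 9.41 CPM, and its log2 ratio was 0.09 (-0.50 to 0.66). hsa-miR-378d, with 9 counts in both libraries, had 1.14 and 1.97 CPM and a log2 ratio of 0.79 (-0.72 to 2.30), which leaves its direction undetermined. All kept names together had a median of -0.15, and TMM scaling moved all ratios up by 0.17. Relative to that median, hsa-miR-378a-3p stood at -0.60, with 18 of the 187 names lower, and hsa-miR-378c at 0.25. The whole family had 265 CPM (249.96 to 280.01), a log2 ratio of -0.72 (-0.81 to -0.62), while members other than hsa-miR-378a-3p had 11.1 CPM in the parent and 12.3 CPM in subclone2.

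Between the subclones, which differ in the labelled lymph node metastasis, the 3 most abundant members were lower in subclone2. hsa-miR-378a-3p was 0.628 times as high as in subclone1 (0.580 to 0.679), a log2 ratio of -0.67 (-0.79 to -0.56). hsa-miR-378c was 0.316 times as high (0.215 to 0.451), a log2 ratio of -1.66 (-2.22 to -1.15), and 1 kept name had a lower ratio. Of the 2 members kept, 1 was called, and 5.76% of 191 names were, where hsa-miR-378c again passed the minimum only through subclone1 and nothing is read from the count. The median of all kept names was -0.17, and relative to it hsa-miR-378a-3p stood at -0.51 and hsa-miR-378c at -1.50. TMM scaling moved all ratios up by 0.23, to -0.44 for hsa-miR-378a-3p and -1.43 for hsa-miR-378c. hsa-miR-378d, with 18 and 9 counts, had -1.32 (-2.69 to -0.13). Under the 3 other scalings its log2 ratio was -1.08 to -1.17, still past 2-fold, but the interval held 0 in each (-2.46 to 0.11 with TMM). All 3 comparisons are drawn from the same 3 libraries, so these ratios are not independent of each other.

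**Figure D2:**
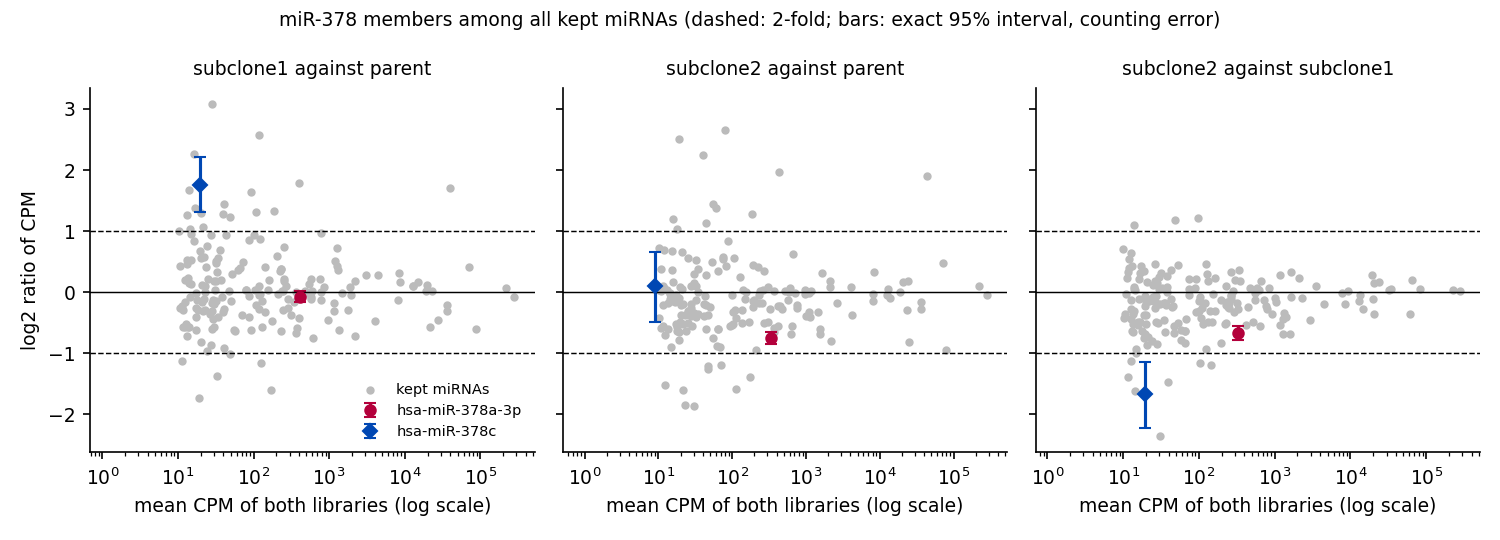
Log2 ratio of CPM against mean CPM (log scale) for every kept miRNA (grey) in the 3 comparisons, with hsa-miR-378a-3p (red circle) and hsa-miR-378c (blue diamond) and their exact 95% intervals for counting error; dashed lines mark 2-fold. hsa-miR-378c stood beyond 2-fold in subclone1 against parent (1.75) and in subclone2 against subclone1 (-1.66) and near 0 in subclone2 against parent (0.09), where it was below the level needed to be kept, whereas hsa-miR-378a-3p stayed within 2-fold in each.

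The minor members were then measured per 1000 counts of hsa-miR-378a-3p in the same library, a quotient that needs no scaling to a library total. hsa-miR-378c made up 20.9 per 1000 in the parent (16.2 to 26.5), 74.5 per 1000 in subclone1 (60.6 to 90.7) and 37.3 per 1000 in subclone2 (26.8 to 50.6). The intervals of the 3 libraries did not overlap, by a narrow margin for parent and subclone2, and on this measure subclone2 lay between the others. From parent to subclone1 the quotient was 3.56-fold higher (exact conditional interval of the odds ratio 2.60 to 4.93), from parent to subclone2 1.79-fold higher (1.18 to 2.66), and from subclone1 to subclone2 it was 0.504 times as large (0.340 to 0.726). In subclone2 the level of hsa-miR-378c in CPM did not differ detectably from that of the parent and the denominator was lower, while in subclone1 the numerator was higher and the denominator was close to that of the parent.

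hsa-miR-378d had 2.68 per 1000 in the parent (1.23 to 5.10), 12.5 per 1000 in subclone1 (7.41 to 19.9) and 7.81 per 1000 in subclone2 (3.56 to 14.9). These values had the same order as those of hsa-miR-378c. Both quotients share the denominator hsa-miR-378a-3p and were among the values that chose the family, so their common order supports nothing. Its change from the parent was 4.54-fold in subclone1 (1.99 to 11.8) and 2.91-fold in subclone2 (1.02 to 8.29). Set against hsa-miR-378c instead, hsa-miR-378d came to 129, 168 and 209 per 1000, and no pair of libraries could be told apart, with intervals of 0.522 to 3.50, 0.525 to 5.02 and 0.455 to 3.19 for the 3 fold changes. Both quotients to hsa-miR-378a-3p were therefore higher in the subclones than in the parent, by a narrow margin for hsa-miR-378d in subclone2. The proportions of the 2 members did not differ detectably. In subclone2 hsa-miR-378a-3p was lower, and no difference in CPM from the parent was detectable for hsa-miR-378c or hsa-miR-378d. hsa-miR-378g had 0.895, 0.696 and 0 per 1000, where the interval of the 0 reached 3.20, and hsa-miR-378f 0.298, 0.696 and 0.867.

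**Figure D3:**
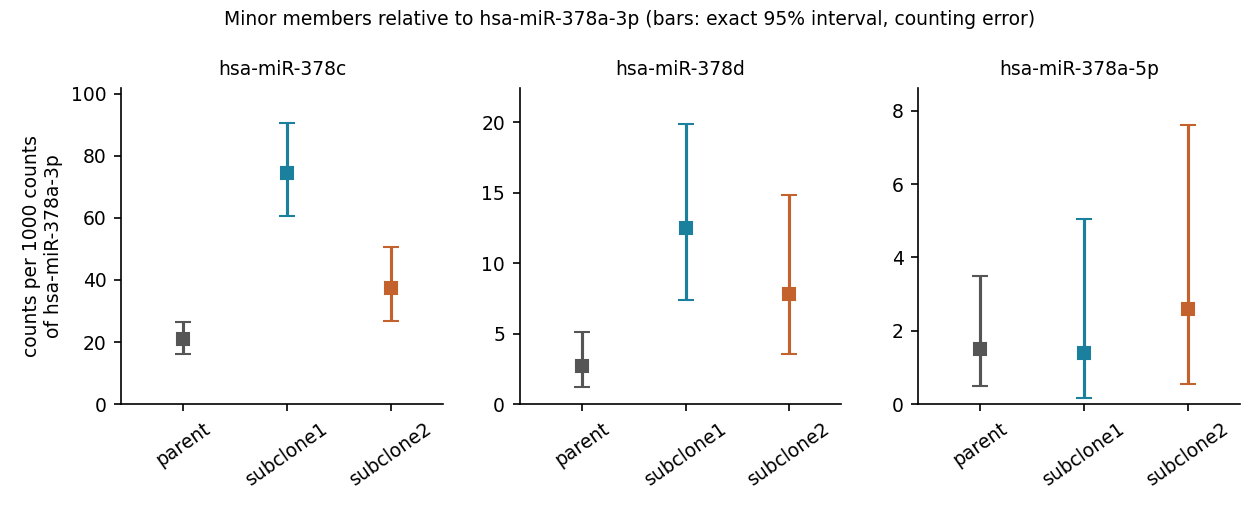
Counts of hsa-miR-378c, hsa-miR-378d and hsa-miR-378a-5p per 1000 counts of hsa-miR-378a-3p in each library, with exact 95% intervals for counting error and a separate axis from 0 in each panel. The quotient of hsa-miR-378c was 20.9 for the parent, 74.5 for subclone1 and 37.3 for subclone2 without overlap of the intervals, while that of hsa-miR-378a-5p (1.39 to 2.60) overlapped in all libraries.

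The same quotient was taken for every other pair of names with RefSeq sequences that share a run of at least 18 bases, with at least 30 counts for each name over the libraries and counts not identical. This left 11 pairs, including that of miR-378, whose quotient was among the values that chose the family, so its place beside the others is a description and supports nothing. From parent to subclone1 the log2 change of the other 10 pairs ranged from -0.21 to 0.38, compared with 1.83 for hsa-miR-378c over hsa-miR-378a-3p. From parent to subclone2 the range was -0.14 to 0.45 against 0.84, and from subclone1 to subclone2 -0.20 to 0.14 against -0.99. Past 2-fold were 9.09%, 0.00% and 0.00% of all pairs in these comparisons, and the 1 pair in question was that of miR-378. The pairs that came next were hsa-miR-23b-3p with hsa-miR-23a-3p and hsa-miR-27b-3p with hsa-miR-27a-3p for subclone1 against parent, the former and hsa-miR-1268a with hsa-miR-1268b for subclone2 against parent, and hsa-miR-1268a and hsa-miR-27b-3p with their partners between the subclones. In 2 of the other pairs the names held counts within 5% of each other in every library, and the small change of their quotient follows from that criterion. The minor name of the miR-378 pair had far fewer counts than its partner, 20.9 to 74.5 per 1000, a position shared only by hsa-miR-320d with hsa-miR-320b (25.5 to 26.7 per 1000).

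**Figure D4:**
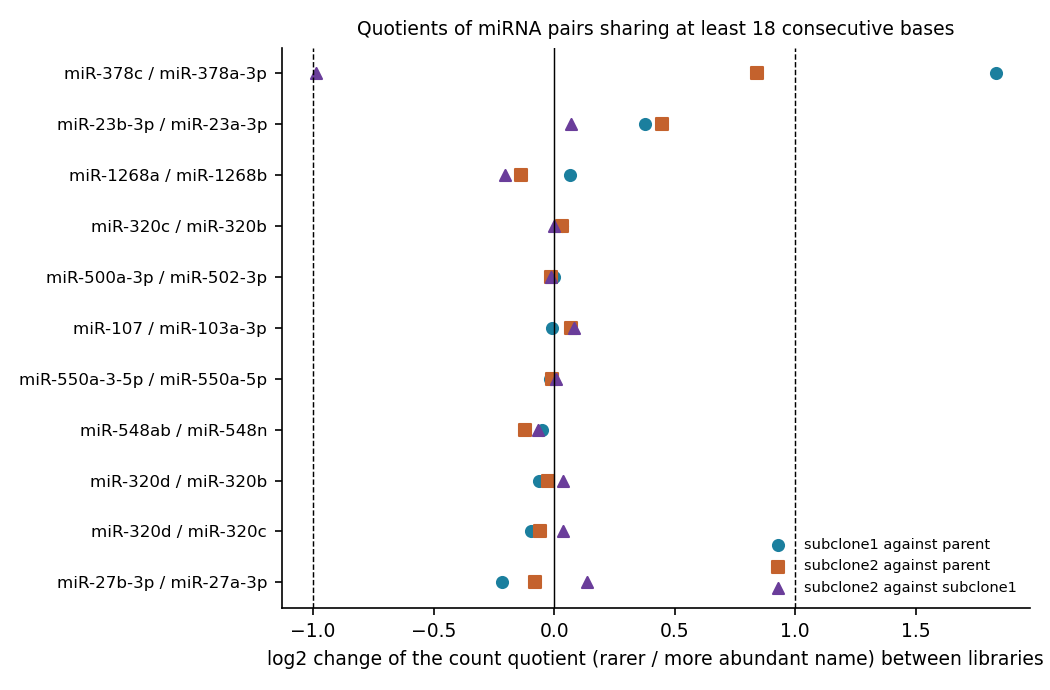
Log2 change between libraries of the count quotient of the rarer over the more abundant name, for 11 pairs of miRNAs that share at least 18 consecutive bases; symbols give the 3 comparisons and dashed lines mark 2-fold. The pair of hsa-miR-378c and hsa-miR-378a-3p lay outside the range of the other 10 pairs in each comparison (1.83, 0.84 and -0.99), and its quotient was among the values that chose the family.

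The arms of the miR-378a hairpin were compared as well. hsa-miR-378a-5p gave 1.49 counts per 1000 of the 3p arm in the parent (0.484 to 3.48), 1.39 counts in subclone1 (0.169 to 5.04) and 2.60 counts in subclone2 (0.536 to 7.62), and no difference was detectable on 5, 2 and 3 counts. Over the libraries the 5p arm had 10 counts against 5941, or 1.68 per 1000. Among 64 hairpins whose stronger arm had at least 1000 counts, 21 had a weaker arm at or below this value, and the median was 6.16 per 1000. The one-sided use of the 3p arm was therefore within the common range. The 5p arm had too few counts for the comparison with the 75 hairpins that had at least 30 counts in both arms, of which 10.7%, 16.0% and 18.7% changed their arm quotient past 2-fold in the 3 comparisons. The largest changes there were those of miR-1307, miR-2355 and miR-625 (subclone1 against parent), miR-362, miR-454 and miR-532 (subclone2 against parent) and miR-2355, miR-1307 and miR-342 (between the subclones).

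To find the miRNAs whose levels ran most like those of the family, log2 CPM values were centred on their mean over the 3 libraries and ranked by Euclidean distance among the names with a mean of at least 10 CPM. With only 3 libraries such a likeness describes these libraries and says nothing of shared control. The nearest to hsa-miR-378a-3p were hsa-miR-365a-3p and hsa-miR-365b-3p, whose counts are identical (both at a distance of 0.11), followed by hsa-miR-374b-5p, hsa-miR-181a-5p and hsa-miR-21-3p (each 0.13). Each of these was lowest in subclone2, as hsa-miR-181a-5p with 1849, 1957 and 1224 CPM in parent, subclone1 and subclone2. That order follows from their choice by likeness. For hsa-miR-378a-5p, whose own 10 counts fix its pattern poorly, the nearest were hsa-let-7c, hsa-miR-320a, hsa-miR-664-5p, hsa-let-7a-5p and hsa-miR-31-5p, all close to level over the libraries.

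hsa-miR-378c lay nearest to hsa-miR-1, a miRNA of skeletal and heart muscle, at a distance of 0.05. hsa-miR-1 had 53, 77 and 32 counts, or 6.71, 21.6 and 7.01 CPM, and thus a similar depth as well as a similar order. Like hsa-miR-378c, it passed the minimum mean of 10 CPM only through its level in subclone1. The next were hsa-miR-210, the miRNA best known for its induction by hypoxia, at 0.33, hsa-miR-152 at 0.37, hsa-miR-589-5p at 0.63 and hsa-miR-181c-5p at 0.66. These distances carry no counting error. In subclone1 against parent the log2 ratios were 1.29 (0.99 to 1.58) for hsa-miR-210 and 1.65 (1.45 to 1.85) for hsa-miR-152. Both intervals overlapped that of hsa-miR-378c (1.31 to 2.21), so the counts do not settle which name lies nearest. All 5 were highest in subclone1, which follows from their choice by likeness to hsa-miR-378c.

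**Figure D5:**
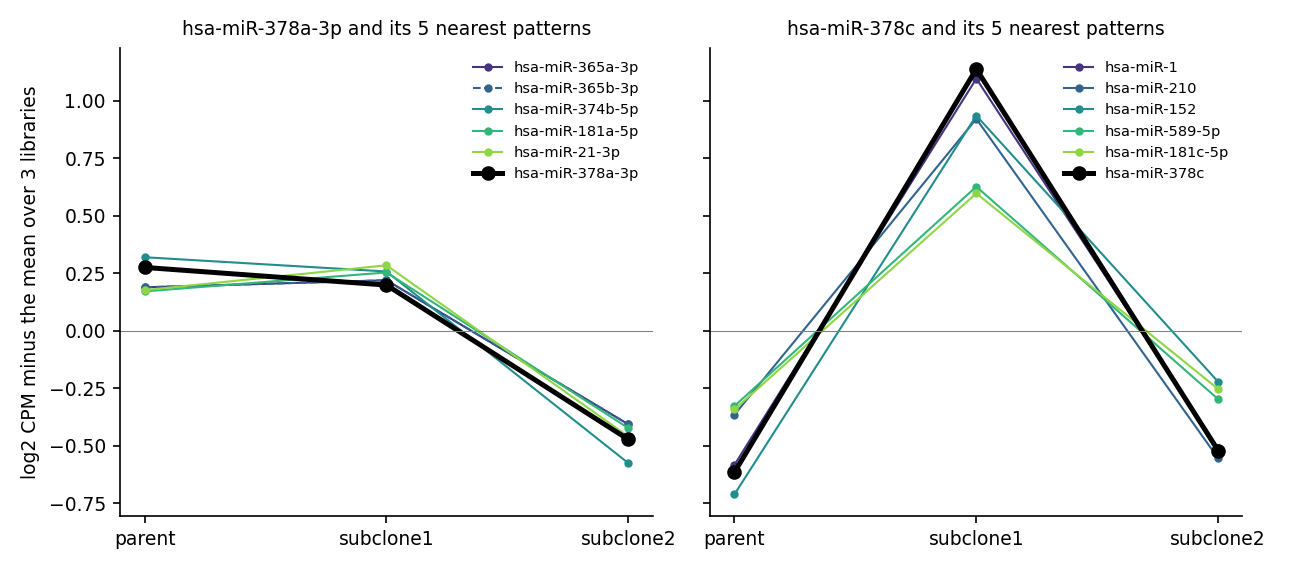
Log2 CPM minus the mean over the 3 libraries for hsa-miR-378a-3p (left, black) and hsa-miR-378c (right, black) with the 5 miRNAs nearest to each; lines join the values of 1 miRNA across the single libraries and imply no order. The miRNAs near hsa-miR-378a-3p were lowest in subclone2, and those near hsa-miR-378c were highest in subclone1, with hsa-miR-1 almost on the same line. Both orders follow from the choice by likeness.

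Since miR-378 is abundant in muscle, the other muscle miRNAs were listed. Of 8 names, 4 were at 0 in every library and only hsa-miR-1 reached 10 CPM in any, which it did in subclone1 alone. Its log2 ratio was 1.68 (1.16 to 2.22) in subclone1 against parent, 0.07 (-0.62 to 0.72) in subclone2 against parent and -1.61 (-2.26 to -1.01) between the subclones. hsa-miR-133a, which is cut from the same primary transcripts as miR-1, had 1 count in each library, hsa-miR-206 had 6, 5 and 3, and hsa-miR-499a-5p 5, 3 and 5. The muscle list summed to 8.23, 24.1 and 8.98 CPM, nearly all of it hsa-miR-1. Its names below 10 CPM were added here after their counts were seen, and the source of the hsa-miR-1 counts was not tested.

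A further list held miRNAs that, like miR-378a, sit in introns of genes of lipid or coenzyme A metabolism. Of its 8 names, 3 reached 10 CPM, and 0 of these 3 were called in any of the comparisons, where 13.0%, 10.7% and 5.76% of all kept names were. hsa-miR-33a-5p, from the SREBF2 gene of sterol control, had 17.97, 30.2 and 17.3 CPM in parent, subclone1 and subclone2, with log2 ratios of 0.75 (0.38 to 1.12) and -0.05 (-0.47 to 0.35) against the parent. hsa-miR-103a-3p and hsa-miR-107, which lie in the pantothenate kinase genes, had 14080, 15873 and 13129 CPM and 8106, 9073 and 7939 CPM. The list medians were 0.17, -0.05 and -0.27 in subclone1 against parent, subclone2 against parent and between the subclones, beside 0.02, -0.15 and -0.17 over all kept names.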

How the data were processed

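Total RNA (Trizol, 1 ug per library) had been made into Illumina TruSeq Small RNA libraries, 1 per strain. The authors deposited unscaled read counts per mature miRNA name, with no coordinates. The submitters' processing notes name CASAVA 1.4 and hg19 without a role. Adapter trimming, aligner, mismatch limit, miRBase release and the handling of reads that fit several miRNAs are not given in the sources used here. Reads of near-identical members may therefore have been credited to several names or exchanged between names. hsa-miR-365a-3p and hsa-miR-365b-3p held the same counts, 618, 285 and 236 in parent, subclone1 and subclone2. How reads that fit both hsa-miR-378a-3p and hsa-miR-378c were counted was not tested.

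Counts were scaled to the library total over all 1921 names. Log2 ratios used 0.5 counts added to each library, with exact 95% conditional binomial intervals. Groups held 1 library each, so no p-value was computed. Ratios were computed for the whole table with a minimum mean of 10 CPM, and no fitted ratio is given where both counts were 3 or fewer. Quotients were compared by the conditional odds ratio. The calculation was tested on simulated data. Alternatives were TMM factors (edgeR 4.0.16), median-of-ratios factors (DESeq2 1.42.0), a total that left out the 10 highest names of any library, a pseudocount of 5, other fold thresholds and minimum levels, and other sums and denominators. Python 3.11.15, scipy 1.17.1 and R 4.3.3 were used.

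Sequences were matched by exact name to RefSeq (1576 of 1921 names). The members, lists and naming rule were chosen with earlier results of these data known. Named were all members, hsa-miR-422a, the 5 nearest patterns of hsa-miR-378a-3p, hsa-miR-378c and hsa-miR-378a-5p, the 3 near-copy pairs and 3 arm pairs with the largest change per comparison, and list members with at least 10 CPM in any library. Further muscle and neighbouring names were added after their counts were seen.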

Additional observations from a re-analysis of the deposited data

Results flagged for a closer look

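The log2 ratio of the summed miR-378 family against the parent had opposite signs in the subclones, 0.010 in subclone1 and -0.72 in subclone2. The difference was not tested, since each strain had 1 library. The interval in subclone1 (-0.08 to 0.10) held 0, and its sign turned under the 3 other scalings (-0.05 with TMM factors, -0.06 with median-of-ratios factors and -0.06 with a total that left out the 10 highest names of any library), so no direction is drawn for subclone1.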

How the results depend on the processing

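No paired analysis was possible because each strain had 1 library, so no library could be left out either. The log2 ratios of hsa-miR-378a-3p, hsa-miR-378c, hsa-miR-378d and hsa-miR-378a-5p gave 84 values under the alternatives, tallied without the minimum of 10 CPM. Of these, 74 kept their call or lack of one, 8 lost a call, 2 gained one and 0 called ratios reversed. The lost calls other than those of hsa-miR-378c were all of hsa-miR-378d. That name was below the minimum in every comparison, so under the full rule it had no call to lose. With a 4-fold threshold hsa-miR-378c was no longer called in subclone1 against parent (1.75) or between the subclones (-1.66), and with a 1.5-fold threshold hsa-miR-378a-3p was called in subclone2 against parent (-0.75) and against subclone1 (-0.67), both by construction. Under the 3 other scalings hsa-miR-378c kept its call, at 1.68 to 1.69 and -1.43 to -1.52. The family sum passed 2-fold without hsa-miR-378a-3p (1.70 in subclone1 against parent and -1.55 between the subclones) and without hsa-miR-378c as well (1.43 and -1.09), since these sums hold other names. The sum of hsa-miR-378a-3p and hsa-miR-378c, chosen after seeing the data, stayed uncalled. No call of the quotients of hsa-miR-378c and of the arms changed in the 12 alternative values, although with a pseudocount of 5 the arm quotient of subclone2 against parent passed 2-fold (log2 1.21 against 0.89), where its interval still held 0. The number of all kept miRNAs called depended on the thresholds. For subclone1 against parent, subclone2 against parent and subclone2 against subclone1, it was 25, 20 and 11 as reported, 56, 50 and 36 at 1.5-fold, 3, 3 and 1 at 4-fold, 13, 13 and 5 with the interval wholly beyond 2-fold, 7, 5 and 2 with a minimum of 100 CPM, and 67, 75 and 33 with no minimum. Depth limits hsa-miR-378d, hsa-miR-378f, hsa-miR-378g and hsa-miR-378a-5p, which had at most 18 counts in any library.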
